A study of Mus musculus with 6 samples.

Results

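Collagen becomes a load-bearing fibre only after its chains have been modified inside the cell and joined outside it. The 10 genes described here, picked by symbol out of 17556 in the deposited table, encode enzymes of that sequence and 1 chaperone: the lysyl hydroxylases Plod1, Plod2 and Plod3, the prolyl 4-hydroxylase alpha subunits P4ha1, P4ha2 and P4ha3, the lysyl oxidases Lox, Loxl1 and Loxl2, and the collagen chaperone Serpinh1, also known as HSP47. The group was selected on the measured values of Plod2, which separated the genotypes, and the other 9 genes were added for their function. The values of Plod2 between genotypes are therefore given as a description with no test, and nothing is supported with the counts over the 10 genes. All 10 passed the filter on low counts.

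RNA was measured by bulk RNAseq in left ventricles of 6 mice aged 6 to 10 weeks, collected 4 days after permanent ligation of the left anterior descending artery. Mice of both groups were siblings, carried floxed alleles of Yap (both alleles) and Wwtr1 (1 allele), underwent the same injury and ate tamoxifen citrate diet from surgery onwards. The 3 Cre-positive mice had in addition a copy of MerCreMer, a tamoxifen-dependent Cre recombinase, at the endogenous Periostin locus, and the 3 Cre-negative siblings had wildtype Periostin. Cre is thus active only in cells that use the Periostin promoter, chiefly myofibroblasts, whereas the RNA came from every cell of the ventricle, and sex was not given by the labels. Total counts were between 13177888 and 14827579 per ventricle. In these whole ventricles Yap1 had normalized counts of 1481 ± 64.3 (SD, n = 3) in the Cre-negative and 1510 ± 94.4 (SD, n = 3) in the Cre-positive group, and Wwtr1 1562 ± 85.5 and 1612 ± 50.9 (SD, n = 3 each), and the 95% intervals of their log2 fold changes (-0.17 to 0.23 and -0.15 to 0.24) included 0, so depletion was not detectable in the whole ventricle. Postn, whose locus carries the Cre in the Cre-positive mice, had 21233 ± 7932 and 13478 ± 779.9 normalized counts (SD, n = 3 each). Its log2 fold change was -0.66 (95% interval -1.29 to -0.02), which edgeR did not call after adjustment, and -0.94 without Cre-negative replicate 1, where edgeR called it.

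Cre-negative replicate 1 stood apart from the other 5 ventricles. A chi-square statistic of its counts, averaged over genes and equal to 1 where libraries differ by sampling alone, was 42.5 to 65.6 against each of them and 7.86 to 16.5 between any others. Its summed TPM (a length-corrected share of all transcripts) of 8 cardiomyocyte markers was 51669, above the 35596 to 39204 of the others, that of 6 neutrophil markers was 422.9 against 52.2 to 160.5 (with Ly6g too low to be tested), and that of 10 fibrillar substrates of the enzymes, 9 collagen chains and elastin, was 3910 against 6122 to 8276. S100a8 and S100a9 made up most of the neutrophil sum in Cre-negative replicate 1 (152 and 203 TPM). Csf3r, of the same list, was instead lowest there, at 12.3 TPM against 17.4 to 25.95. Defining markers of cardiomyocytes, fibroblasts, macrophages and endothelium were detected in all 6 ventricles. Each result below is given with and without this sibling where it matters, a choice made after its values were seen. In bulk RNA, fewer cells of a type and less RNA per cell cannot be told apart.

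As background, prolyl 4-hydroxylase places hydroxyl groups on proline in the endoplasmic reticulum, which keeps the collagen triple helix folded at body temperature. Its active form pairs alpha subunits, which hold the catalytic site, with the beta subunit protein disulphide isomerase (P4hb). Lysyl hydroxylases act on lysine in the same compartment: PLOD1 and PLOD3 act mainly on helical lysines, PLOD3 also attaches sugars, and PLOD2 acts on the lysines of the telopeptides, from which the more stable pyridinoline crosslinks of scar collagen are built. SERPINH1 binds the finished triple helix and escorts it out of the endoplasmic reticulum. The lysyl oxidases then work outside the cell, where they oxidise lysine and hydroxylysine of collagen and elastin to the aldehydes that form crosslinks. In an infarct, activated fibroblasts are the main source of fibrillar collagen, and P4HA1, P4HA2, PLOD2 and LOX are known to respond to hypoxia.

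The members are spread over 8 chromosomes of GRCm38.p6, the assembly named in the submitters' processing notes. Plod2 (gene number 26432) spans 92539636 to 92608428 on the plus strand of chromosome 9, and its canonical GENCODE M39 transcript has 20 exons. Loxl1 lies on the same chromosome from 58287723 to 58313212. Serpinh1 (99345375 to 99353239, minus strand, 5 exons) and P4ha3 (100285489 to 100319701, plus strand, 13 exons) are both on chromosome 7. P4ha1 lies on chromosome 10 from 59323197 to 59373304, P4ha2 on chromosome 11 from 54100924 to 54131668, Plod1 on chromosome 4 from 147909753 to 147936776, Plod3 on chromosome 5 from 136987019 to 136996646, Loxl2 on chromosome 14 from 69608692 to 69695834 and Lox on chromosome 18 from 52516060 to 52529867. Values are per gene, so alternative exons of Plod2 could not be told apart.

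RefSeq promoters, from 250 bases before to 50 bases after the start site on GRCm38.p6, were matched for 6 of the 10 members: P4ha1, P4ha2, P4ha3, Plod1, Plod3 and Serpinh1. They were searched on both strands for ACGTG, the core of the hypoxia response element, for GGAATG, the TEAD motif through which Yap and Wwtr1 act, and for the heat shock element, in which GAA, TTC and GAA are each parted by any 2 bases. ACGTG was found in 4 of the 6 promoters, those of P4ha1, P4ha2, Plod3 and Serpinh1, and in 19.6% of all 32851 promoters of the same length. GGAATG was in none of the 6 and in 14.7% of all promoters, and the heat shock element was in none of the 6 and in 0.603% of all. With only ACGTG found, no overlap between motifs could arise. The 6 promoters held 53.3% to 70.3% G and C against a median of 52.7% in all promoters, and a match in this window is a description of its letters, not a binding site.

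Of the 6 matched promoters, those of the prolyl 4-hydroxylase alpha subunits and of Serpinh1 are shown. Among these 6, their genes lay furthest apart in how they varied among siblings. None was matched for Plod2, Lox, Loxl1 or Loxl2, and a link between motif and values was not tested. Capitals mark ACGTG or, where it lies on the opposite strand, CACGT, and positions are counted from 1 at the 5′ end of each run. P4ha1 (chr10:59323046-59323345, plus strand) has it at 235 to 239 on the opposite strand, P4ha2 (chr11:54100674-54100973, plus strand) at 173 to 177 and at 261 to 265, Serpinh1 (chr7:99353190-99353489, minus strand) at 80 to 84 on the opposite strand, and P4ha3 (chr7:100285270-100285569, plus strand) has none.
P4ha1: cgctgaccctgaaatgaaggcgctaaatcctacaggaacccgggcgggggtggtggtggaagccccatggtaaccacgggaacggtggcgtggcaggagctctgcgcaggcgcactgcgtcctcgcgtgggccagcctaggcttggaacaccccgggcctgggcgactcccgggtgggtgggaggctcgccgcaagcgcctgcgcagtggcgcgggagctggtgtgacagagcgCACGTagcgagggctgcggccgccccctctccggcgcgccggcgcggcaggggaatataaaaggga
P4ha2: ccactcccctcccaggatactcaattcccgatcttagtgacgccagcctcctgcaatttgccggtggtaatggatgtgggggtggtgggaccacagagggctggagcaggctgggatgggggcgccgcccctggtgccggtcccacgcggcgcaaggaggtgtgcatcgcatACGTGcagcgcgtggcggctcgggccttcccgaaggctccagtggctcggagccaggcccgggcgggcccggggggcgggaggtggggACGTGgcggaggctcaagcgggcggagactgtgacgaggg
P4ha3: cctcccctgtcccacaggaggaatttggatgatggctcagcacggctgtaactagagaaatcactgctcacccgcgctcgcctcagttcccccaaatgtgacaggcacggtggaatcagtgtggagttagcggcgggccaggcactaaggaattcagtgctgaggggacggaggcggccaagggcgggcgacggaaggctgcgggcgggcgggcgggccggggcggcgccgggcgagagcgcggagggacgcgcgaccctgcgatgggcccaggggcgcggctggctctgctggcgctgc
Serpinh1: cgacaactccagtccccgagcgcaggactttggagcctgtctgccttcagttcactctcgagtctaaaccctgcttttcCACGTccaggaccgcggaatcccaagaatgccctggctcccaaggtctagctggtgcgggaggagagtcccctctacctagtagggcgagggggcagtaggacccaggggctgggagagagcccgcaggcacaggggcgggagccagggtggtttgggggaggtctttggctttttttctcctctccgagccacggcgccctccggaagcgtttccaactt

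The levels of the members were compared in TPM, which accounts for gene length. Their order by the mean of the 6 ventricles was Serpinh1, Loxl1, Lox, Plod1, Loxl2, Plod3, P4ha1, P4ha2, Plod2 and P4ha3, from 951.2 ± 229.6 TPM for Serpinh1 to 19.2 ± 7.17 TPM for P4ha3 (SD, n = 6). The chaperone was thus the most abundant transcript by a wide margin, between 2.71 and 3.71 times Loxl1 within a ventricle. Loxl1 had 289.1 ± 48.5 TPM, Lox 159.7 ± 34.0, Plod1 141.1 ± 12.7, Loxl2 112.5 ± 26.7 and Plod3 99.5 ± 15.8 (SD, n = 6 each). The other hydroxylases were lower, with P4ha1 at 63.8 ± 11.4, P4ha2 at 48.4 ± 4.53 and Plod2 at 38.5 ± 8.53 TPM (SD, n = 6 each).

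**Figure D1:**
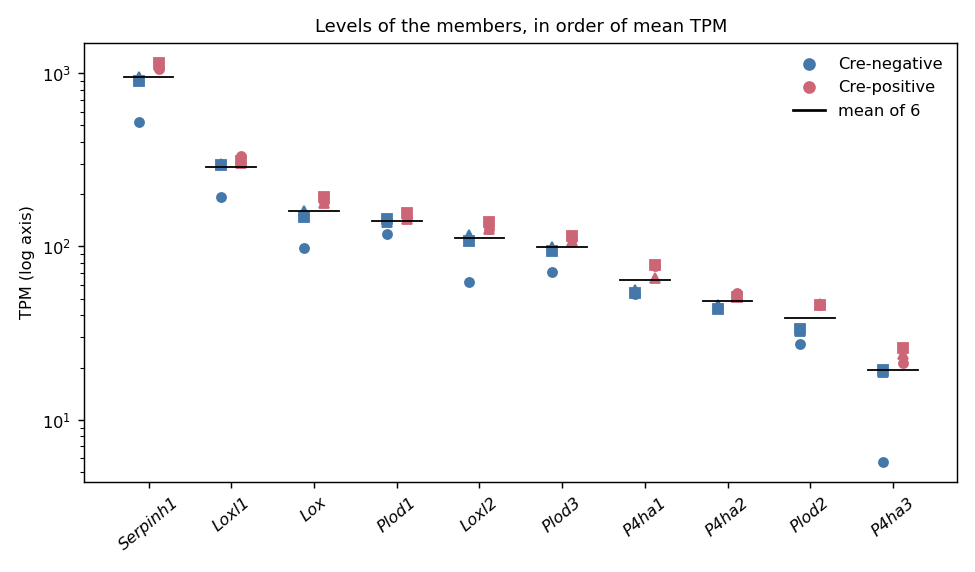
TPM of the 10 members (y axis, log scale) in each of 6 ventricles, ordered along the x axis by mean TPM; blue points are Cre-negative and red points Cre-positive ventricles, circles, squares and triangles are replicates 1, 2 and 3, and black lines are the means of 6. Serpinh1 lies at the top (524.9 to 1151 TPM) and P4ha3 at the bottom (5.68 to 26 TPM), where the circle of Cre-negative replicate 1 stands alone.

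Neighbours in this order were compared within ventricles by an exact two-sided sign-flip permutation test of log2 ratios over 9 pairs, which with 6 ventricles cannot give p under 0.0313. In 7 of the 9 pairs the order was the same in 6 of 6 ventricles (exact p = 0.0313, adjusted p = 0.0402 by Benjamini-Hochberg over the 9 pairs). The pairs, those with Plod2 among them, were set by sorting the means of these same ventricles. These p-values thus describe how steady an order was and are no independent test of it. An error in the TPM of a gene that all ventricles share would not be seen. Lox exceeded Plod1 in 5 of 6 ventricles, by 1.11-fold on average (exact p = 0.156, adjusted p = 0.156), and Loxl2 exceeded Plod3 in 5 of 6, by 1.11-fold (exact p = 0.0938, adjusted p = 0.105). These pairs did not differ beyond their spread, and in both the ventricle with the opposite order was Cre-negative replicate 1. Within each family the order held in 6 of 6 ventricles: Plod1 was 1.32 to 1.66 times Plod3 and 3.11 to 4.34 times Plod2, P4ha1 was 1.2 to 1.52 times P4ha2 and 2.72 to 9.3 times P4ha3 (to 3.61 times without Cre-negative replicate 1), and Loxl1 was 1.61 to 1.99 times Lox and 2.24 to 3.11 times Loxl2.

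Between genotypes the log2 fold change was above 0, higher in Cre-positive ventricles, for 10 of 10 members and for 51.2% of all genes tested. Of the 9 members other than Plod2, edgeR's quasi-likelihood test called 0 at an adjusted p under 0.05. Of all 13817 genes tested, 0.00724% were called (1 gene, Gbp2b). At an unadjusted p under 0.05, 1 of the 9 passed, P4ha1 (5.83% of all genes), and DESeq2 called 0 of the 9 (0.0285% of all genes). By normalized counts, which are counts scaled by TMM to a library of 14273417, all 3 Cre-positive ventricles lay above all 3 siblings for 7 of 10 members (7.55% of all genes). By TPM this was so for 9 of 10 members (12.7% of all genes), on a scale on which the median of all genes was itself 0.08 to 0.12 higher in log2 in Cre-positive ventricles. The log2 fold changes of the members had a median of 0.33 against 0.006 for all genes tested, and without Cre-negative replicate 1 a median of 0.17 against 9.7e-05. Since Plod2 chose the group in this contrast, nothing is read from these counts.

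Of the lysyl hydroxylases, Plod2 is described first, and its separation restates how the group was chosen. Its normalized counts were 870.4, 962 and 927 in the Cre-negative siblings and 1316, 1210 and 1264 in the Cre-positive ventricles, listed from replicate 1 to 3 as everywhere below. The groups did not overlap, the lowest Cre-positive ventricle being 1.26 times the highest sibling. The means were 919.8 ± 46.2 and 1264 ± 53.3 (SD, n = 3 each), a log2 fold change of 0.46 (standard error 0.08). It was 0.42 (standard error 0.08) without Cre-negative replicate 1, which was the lowest ventricle, and between 0.42 and 0.49 when any single ventricle was omitted.

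Plod3, which both hydroxylates lysine and adds sugars to it, had 1829, 2184 and 2241 normalized counts in the siblings and 2550, 2421 and 2349 in the Cre-positive ventricles. The groups did not overlap, but the lowest Cre-positive ventricle exceeded the highest sibling by a factor of only 1.05. The log2 fold change was 0.23 (standard error 0.10) with all ventricles and 0.14 (standard error 0.07) without Cre-negative replicate 1. Plod1, which hydroxylates helical lysines, had 3296, 3625 and 3454 against 3650, 3603 and 3431 normalized counts, and the groups overlapped almost wholly. Its log2 fold change was 0.04 (standard error 0.09, 95% interval -0.16 to 0.24), and 0.005 (standard error 0.07) without Cre-negative replicate 1. Counts of Plod3 and of Loxl2 were not whole numbers, so some of their reads had been divided with other genes.

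The make-up of the lysyl hydroxylases, which does not depend on how libraries are scaled, is given as a description, since it holds Plod2. That gene took 12.6%, 12.3% and 12.02% of the summed TPM of the 3 genes in the siblings and 15.2%, 14.5% and 15.6% in the Cre-positive ventricles. All Cre-positive ventricles lay above all siblings. The share of Plod1 lay lower in each Cre-positive ventricle (48.3% to 49.3%) than in each sibling (51.3% to 54.5%), while that of Plod3 overlapped (36.1% to 36.5% within 32.9% to 36.7%). Non-overlap was seen in other families too, with no background over all genes for such shares, which within a family depend on each other. The share of Lox was 27.7%, 26.9% and 28.0% of the 3 lysyl oxidases in the siblings and 28.3%, 30.1% and 29.2% in the Cre-positive ventricles, a narrow gap, and that of P4ha2 lay lower in each Cre-positive ventricle (32.97% to 36.9%) than in each sibling (37.2% to 42.8%). Shares of P4ha1, P4ha3, Loxl1 and Loxl2 overlapped.

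**Figure D2:**
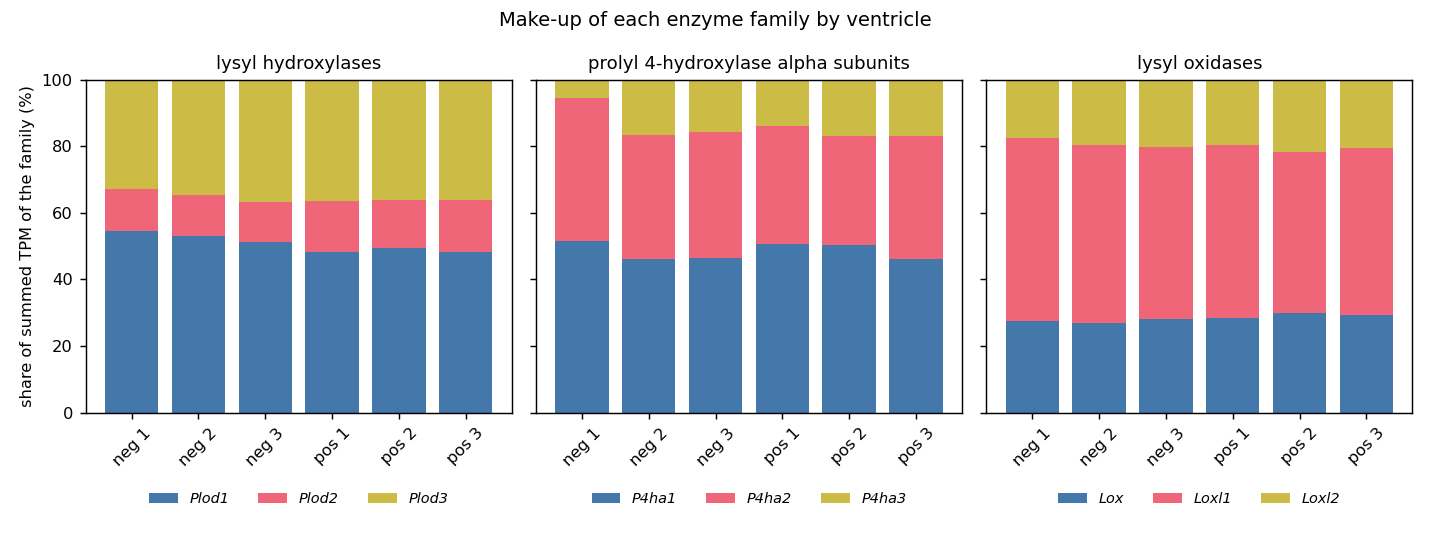
Share of each gene in the summed TPM of its enzyme family (y axis, percent) in the 6 ventricles (x axis, neg for Cre-negative and pos for Cre-positive replicates); colours are the genes of a family. In the left panel the band of Plod2 is 12.02% to 12.6% in the siblings and 14.5% to 15.6% in the Cre-positive ventricles, and in the middle panel P4ha3 takes 5.55% in Cre-negative replicate 1 and at least 14% elsewhere.

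The alpha subunits of prolyl 4-hydroxylase did not share a pattern. P4ha1, the main catalytic subunit in most cells, had 1570, 1392 and 1434 normalized counts in the siblings and 1991, 1875 and 1630 in the Cre-positive ventricles. The groups did not overlap, and Cre-negative replicate 1 was the highest of the siblings rather than the lowest. Its log2 fold change was 0.32 (standard error 0.10, 95% interval 0.08 to 0.56), and 0.37 (standard error 0.10) without that sibling. P4ha2 had 849.2, 752.9 and 799.7 against 929.1, 818.3 and 860.6 normalized counts. Its groups overlapped, with a log2 fold change of 0.12 (standard error 0.09, 95% interval -0.09 to 0.33).

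P4ha3, the least abundant subunit, had the largest estimate and the widest error of the 10 members. Its normalized counts were 114.1, 347.5 and 334.3 in the siblings and 375.4, 425.8 and 403.5 in the Cre-positive ventricles. The estimate rests mostly on Cre-negative replicate 1, which had 97 counts where each other ventricle had 344 or more. The log2 fold change was 0.59 (standard error 0.35, 95% interval -0.23 to 1.41) with it and 0.23 (standard error 0.10) without it.

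The lysyl oxidases Lox and Loxl2 and the chaperone Serpinh1 shared a pattern in which Cre-negative replicate 1 was far below the rest and the Cre-positive ventricles lay slightly above the other 2 siblings. P4ha3 had this pattern too, as did Plod3 with a smaller drop in that sibling. Lox, the founding lysyl oxidase, had 3945, 5353 and 5786 normalized counts in the siblings and 6527, 6477 and 6081 in the Cre-positive ventricles. Its log2 fold change was 0.34 (standard error 0.15), and 0.19 (standard error 0.08) without Cre-negative replicate 1. Loxl2 had 2859, 4461 and 4762 against 5148, 5266 and 4896 normalized counts. Its groups did not overlap, though the gap between the highest sibling and the lowest Cre-positive ventricle was 1.03-fold. The log2 fold change of 0.34 (standard error 0.18) became 0.14 (standard error 0.07) without that sibling.

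Serpinh1 had 9954, 15355 and 16160 normalized counts in the siblings and 17863, 18040 and 18075 in the Cre-positive ventricles. The Cre-positive ventricles differed from each other by 1.01-fold, the smallest such ratio among the 10 members, while the siblings differed by 1.62-fold. The log2 fold change was 0.38 (standard error 0.18) with all ventricles and 0.19 (standard error 0.07) without Cre-negative replicate 1. Loxl1, which is known for its part in elastic fibres, followed only in part: Cre-negative replicate 1 was far below its siblings, but the genotypes overlapped. Normalized counts of Loxl1 were 5559, 7635 and 7654 against 8515, 7369 and 7432. The log2 fold change of 0.16 (standard error 0.15) fell to 0.02 (standard error 0.09) without that sibling. For the 9 members other than Plod2, edgeR's adjusted p (quasi-likelihood) lay between 0.714 and 0.891, and between 0.509 and 0.996 over all the settings tried.

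**Figure D3:**
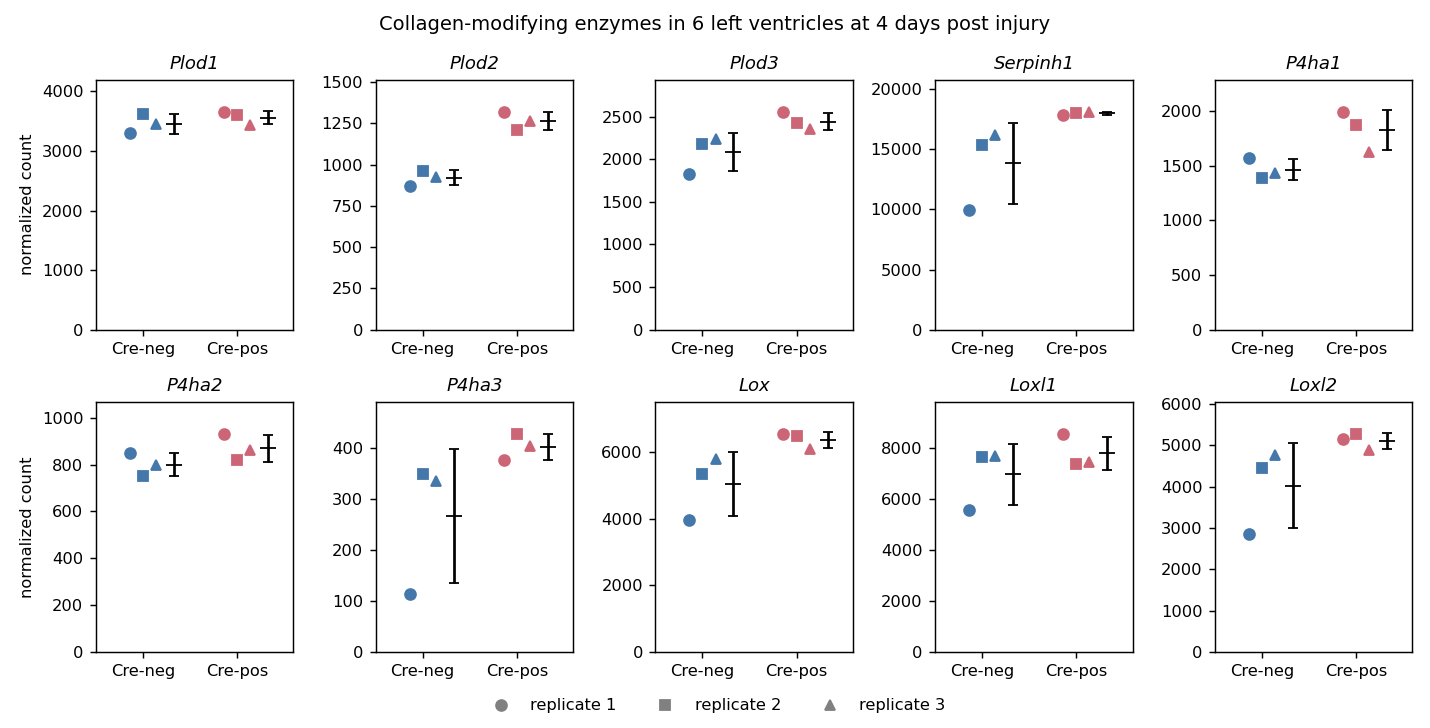
Normalized counts (y axes, from 0) of the 10 members in Cre-negative (blue) and Cre-positive (red) ventricles; circles, squares and triangles are replicates 1, 2 and 3, and black bars are the mean ± SD of 3. Plod2 has no overlap between 870.4 to 962 and 1210 to 1316, and the blue circle of Cre-negative replicate 1 lies far below its siblings for P4ha3, Serpinh1, Lox, Loxl1 and Loxl2.

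**Figure D4:**
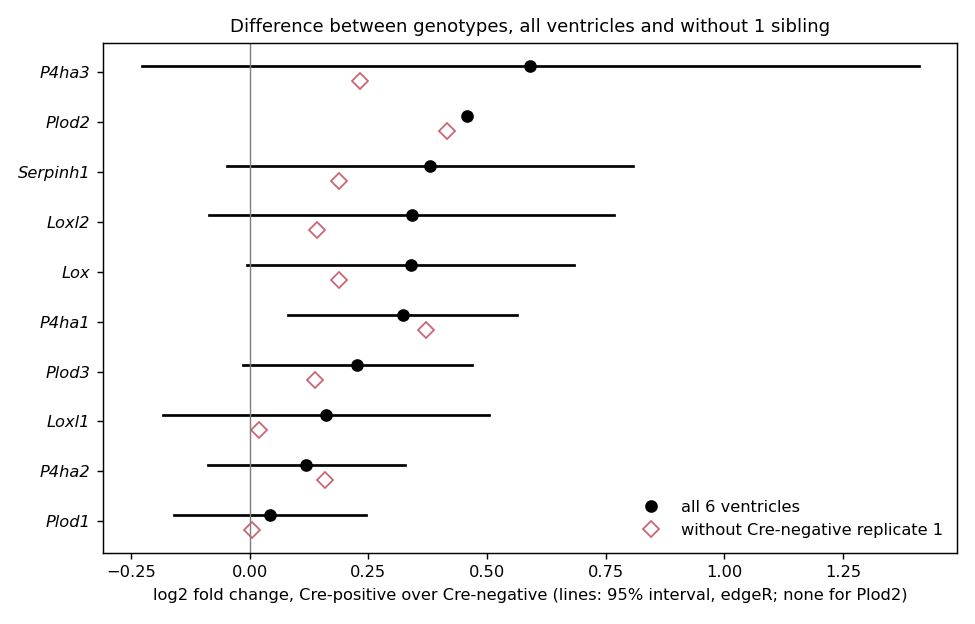
Log2 fold change of Cre-positive over Cre-negative ventricles (x axis) for each member (y axis); black points and lines are the edgeR estimate and its 95% interval over 6 ventricles (no interval for Plod2, whose values chose the group), and open red diamonds are the estimate without Cre-negative replicate 1. The diamonds of P4ha3 (0.23), Serpinh1 (0.19), Lox (0.19), Loxl2 (0.14) and Loxl1 (0.02) lie well to the left of their points, and those of Plod2 (0.42) and P4ha1 (0.37) do not.

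The members differed in how the 3 siblings spread. Cre-negative replicate 1 was the lowest of the 6 ventricles for 8 of the 10 members, all but P4ha1 and P4ha2, against 32.1% of all genes tested. The mean of the other 2 siblings was 2.99 times this ventricle for P4ha3, 1.61 times for Loxl2, 1.58 times for Serpinh1, 1.41 times for Lox and 1.38 times for Loxl1. It was 1.21 times for Plod3, 1.09 times for Plod2 and 1.07 times for Plod1. For P4ha2 and P4ha1 it was 0.914 and 0.9 times. As a description, since the values of Plod2 chose the group, the mean of the Cre-positive ventricles was 1.34 times that of these 2 siblings for Plod2, 1.3 times for P4ha1, and between 1.01 and 1.18 times for the other 8.

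**Figure D5:**
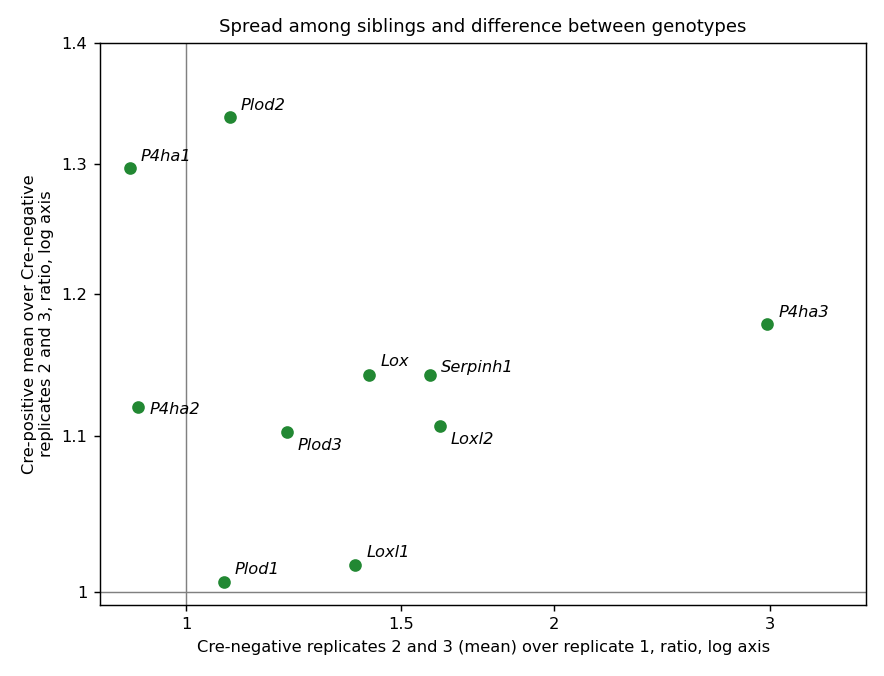
Mean of Cre-negative replicates 2 and 3 over replicate 1 (x axis, ratio, log scale) and mean of the Cre-positive ventricles over Cre-negative replicates 2 and 3 (y axis, ratio, log scale) for the 10 members, from normalized counts; grey lines mark a ratio of 1. Plod2 and P4ha1 are at the top left (1.34 and 1.3 on the y axis), P4ha3 is at the far right (2.99 on the x axis), and the lysyl oxidases and Serpinh1 lie between.

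Over the 6 ventricles the Pearson correlation of log2 normalized counts between members had a median of 0.765 over 45 pairs and ranged from -0.0567 (P4ha2 with P4ha3) to 0.991 (Loxl2 with Serpinh1). It was above 0.9 in 13 pairs. These values describe 6 libraries that share 1 outlying sibling and the genotypes, and carry no test.

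The members were also set against the RNA of their substrates. Per 1000 TPM of the 10 fibrillar substrates, Plod2 had 6.96, 4.76 and 5.29 TPM in the siblings and 5.58, 6.5 and 5.84 TPM in the Cre-positive ventricles. Serpinh1 had 134.2, 128.3 and 155.6 against 127.7, 163.8 and 140.9 TPM on the same scale. Its range within a group was wider than the difference of the means, 139.4 ± 14.4 and 144.1 ± 18.3 (SD, n = 3 each). By this measure all Cre-positive ventricles lay above, or all below, the siblings for 0 of the 10 members (17.4% of all 17556 genes). Without Cre-negative replicate 1 it was so for 1 of 10 (21.1% of all genes), Plod2, whose separation by genotype is what chose the group, so nothing is read from it. The substrates themselves were at 3910, 7030 and 6122 summed TPM in the siblings and at 8276, 7028 and 7946 in the Cre-positive ventricles, where replicate 2 of both genotypes was about equal.

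The pathway around these enzymes was taken from lists of 57 genes, of which 56 were tested (Tll2 was too low). edgeR's quasi-likelihood test called 0 of the 56 higher and 0 lower, 3 had an unadjusted p under 0.05, a share near the 5.83% of all genes, and DESeq2 called 0, where 0.00724% of all genes were called by edgeR and 0.0285% by DESeq2. Of the 56, 40 had a log2 fold change above 0, against 51.2% of all genes tested. For the names below, edgeR's smallest adjusted p was 0.714.

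Among the other intracellular helpers, the list for folding and export of procollagen had 7 of 8 genes above 0 and a median log2 fold change of 0.23, or 0.10 without Cre-negative replicate 1. In it, Creb3l1, a membrane-bound transcription factor of secretory cells, had 0.37 (standard error 0.10) and the prolyl isomerase Fkbp14 0.32 (standard error 0.12), while Tmem38b, a potassium channel of the endoplasmic reticulum, had -0.38 (standard error 0.17). Without Cre-negative replicate 1 these were 0.30, 0.22 and -0.17. P4hb, the beta subunit, had 8570, 10470 and 11132 normalized counts in the siblings and 11664, 11280 and 10929 in the Cre-positive ventricles. Its groups overlapped on this scale and not in TPM (396 to 575.2 against 593.2 to 630.7), with a log2 fold change of 0.17 (standard error 0.12), or 0.06 without that sibling. The list named for prolyl 3-hydroxylation had 6 of 6 genes above 0 with a median of 0.18, from P3h4 at 0.07 (standard error 0.13) to P3h3 at 0.30 (standard error 0.19). Without that sibling 4 of 6 were above 0 with a median of 0.10, and P3h4 had 0.18 and P3h3 0.09. The collagen glycosyltransferases went either way, Colgalt1 with 0.14 (standard error 0.10) and Colgalt2 with -0.19 (standard error 0.17), or 0.04 and -0.27 without that sibling.

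Outside the cell, the list for cleavage of procollagen propeptides had 7 of 7 tested genes above 0 and a median of 0.24, from Pcolce2, an enhancer of cleavage, at 0.04 (standard error 0.17) to the protease Tll1 at 0.66 (standard error 0.38). Without Cre-negative replicate 1, 6 of 7 were above 0 with a median of 0.18, Pcolce2 turned to -0.10 and Tll1 had 1.21. The other lysyl oxidases Loxl3 and Loxl4 had 0.39 (standard error 0.23) and 0.12 (standard error 0.27), and without that sibling 0.14 and -0.16. Of other crosslinking enzymes, peroxidasin (Pxdn), which crosslinks collagen IV, had 0.39 (standard error 0.18) and F13a1, a transglutaminase of macrophages and plasma, -0.13 (standard error 0.19). Without that sibling Pxdn had 0.19 and F13a1 turned to 0.10. The fibrillar substrates had 10 of 10 above 0 and a median of 0.37, or 0.15 with 9 of 10 above 0 without Cre-negative replicate 1, among them Col11a1 at 0.87 (standard error 0.44) and Col5a3 at 0.16 (standard error 0.14), or 0.46 and 0.04 without it.

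Genes outside the members that are known to respond to hypoxia were listed too. Of these 13 targets, 5 had a log2 fold change above 0 and 8 below, with a median of -0.08, from Bnip3, a mitophagy receptor, at -0.58 (standard error 0.32) to the glucose transporter Slc2a1 at 0.13 (standard error 0.11), where 51.2% of all genes tested were above 0. This rested on Cre-negative replicate 1: without it 6 of 13 were above 0, the median was -0.003 and Bnip3 had -0.07. The prolyl hydroxylases that act on HIF rather than on collagen, with P4htm, had 0 of 4 above 0 and a median of -0.30, or 1 of 4 and -0.12 without that sibling. Egln3, of that list, had 144.6 TPM in Cre-negative replicate 1 and 53.8 and 58.1 in its siblings, against 59.7, 73.2 and 70.3 in the Cre-positive ventricles. Its log2 fold change of -0.49 (standard error 0.39) turned to 0.20 without that sibling.

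Markers of the cells that could carry these transcripts are given beside these results. Over 8 fibroblast markers the summed TPM was 2197, 2403 and 2130 in the siblings and 2256, 1964 and 2536 in the Cre-positive ventricles, with no separation. Dcn and Gsn made up most of this sum, and Cre-negative replicate 1 was the lowest of the 6 ventricles for 5 of the 8 markers in TPM. In normalized counts 1 of the 8, Ddr2, did not overlap between genotypes (7.55% of all genes). Over 5 myofibroblast markers, genes such as Cthrc1 and Fap that activated fibroblasts switch on, it was 197.5, 434 and 404.2 against 483.7, 494 and 480.7, so Cre-negative replicate 1 was lowest and the groups did not overlap. Cthrc1 made up most of this sum, and its normalized counts overlapped, as did those of Comp and of Fap, whose log2 fold change was -0.004, or -0.21 without that sibling. Those of Thbs4 and Meox1 did not overlap, 2 of the 5 markers (7.55% of all genes). Smooth muscle markers gave 481.3 to 981.1 against 961.2 to 1098 summed TPM, with overlap. Their median log2 fold change was 0.33 with 4 of 5 above 0, and 0.09 with 5 of 5 above 0 without Cre-negative replicate 1. Cardiomyocyte markers gave 38974 to 51669 against 35596 to 38647, lower in all Cre-positive ventricles than in any sibling, also without that sibling. The gap was narrow, and Actc1 was the largest part of the sum. In normalized counts Tnnt2, Tnni3 and Pln lay lower without overlap, with no share of all genes at hand for this direction. The other cardiomyocyte markers overlapped. Of the 8 cardiomyocyte markers 0 had a log2 fold change above 0, with a median of -0.35, or 1 of 8 and -0.12 without Cre-negative replicate 1. Over 4 markers of epicardium and mesothelium the sum was 98.9, 44.5 and 24.2 TPM in the siblings and 129.6, 67.7 and 76.8 in the Cre-positive ventricles. All 4 had log2 fold changes above 0, with a median of 0.54, and without Cre-negative replicate 1, the highest sibling, the median was 1.43 and the sums did not overlap. The part of these cell types in the differences of the members was not tested.

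The genes most like Plod2 over the 6 ventricles, among 5549 with a mean normalized count of at least 500, were Arnt (r = 0.990), Mlec (r = 0.985), Ptprf (r = 0.982), Pom121 (r = 0.977) and Pdgfb (r = 0.973), by Pearson correlation of log2 normalized counts. Arnt encodes the partner subunit of hypoxia-inducible factors, Mlec a lectin of the endoplasmic reticulum, Ptprf a receptor tyrosine phosphatase, Pom121 a nuclear pore protein and Pdgfb a growth factor of endothelium and platelets. Arnt had 24.7, 29.3 and 28.5 TPM in the siblings and 31.6, 33.3 and 33.2 TPM in the Cre-positive ventricles. Of the members, Plod3 had the highest correlation with Plod2 (r = 0.858, place 136 in that order) and Plod1 the lowest (r = 0.543) of the 8 that reached this count. These genes were picked for their likeness, so the values are a description.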

How the data were processed

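Left ventricular RNA of 3 Cre-positive and 3 Cre-negative mice was analysed from the table the authors deposited. Per the file headers and the submitters' processing notes (RSEM 1.2.12, Bowtie2 2.2.5, GRCm38.p6, with no roles given), it holds estimated counts, which are not normalized, and 11.5% of these are not whole. The deposited TPM values correct for gene length and sum to a constant, and the deposited FPKM values correct for length and library size. Annotation and strand setting were not given in the sources used here. A further deposited table of the authors' own comparison was not used.

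Counts were rounded, filtered by filterByExpr (minimum count 10, minimum total 15; 13817 genes), scaled by TMM and compared with edgeR 4.0.16 (quasi-likelihood, R 4.3.3), with Benjamini-Hochberg adjustment over all genes and a threshold of 0.05. Standard errors derive from the F statistic. The code was tested on simulated data. TPM served for levels between genes and for shares. Alternatives used DESeq2 1.42.0 and limma 3.58.1. Figures used matplotlib 3.10.9, other steps scipy 1.17.1 in Python 3.11.15. Positions and promoters are those of RefSeq on GRCm38.p6.

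Members and lists were chosen with earlier results of these data known. Named genes are the 10 members, the targeted genes, from each pathway list genes among the 2 highest and 2 lowest log2 fold changes, and the 5 genes most like Plod2. P4hb, Gbp2b and the cell type markers were named after their values were seen. Each ventricle was taken as 1 mouse, as the labels imply, and p-values measure only the spread between these ventricles. No ventricle was a copy of another.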

Additional observations from a re-analysis of the deposited data

How the results depend on the processing

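The number of genes called between genotypes (1 gene) stayed at 1 under either filter on counts and either other normalization, and was 5 with DESeq2, where the cause was not tested. On the TPM scale limma called 3, 2 and 1. Omitting a ventricle gave 0 to 2: 2 without Cre-negative replicate 1, and 0 without Cre-negative replicate 3, Cre-positive replicate 1 or Cre-positive replicate 3. The numbers of the replicates are shared by the genotypes. Deviations from the group mean had correlations of 0.35, 0.07 and -0.03 between same-numbered ventricles, from replicate 1 to 3. Between different-numbered ventricles of the 2 genotypes they ran from -0.37 to 0.35. These values do not settle whether the numbers mark pairs. An edgeR fit with a replicate block called 0 genes (1217 at an unadjusted p under 0.05). Neither the 9 members other than Plod2 nor the 56 pathway genes gave a call in any setting tried for them.

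The log2 difference of Plod2 was between 0.42 and 0.58 over the settings. Its direction was fixed by the choice of the gene. It was 0.56 with limma on log2(TPM + 1), with or without a filter at a mean TPM of 1, and 0.58 with log2(TPM + 0.1), settings in which the median of all genes moved by 0.08 to 0.12. Each of the other 9 members kept a log2 fold change above 0 in all settings, which is no sign of stability for the 6 whose groups do not overlap. That of Yap1 reversed without Cre-negative replicate 3 and without Cre-positive replicate 1, at -0.00126 and -0.0242, and reached at most 0.0615 when a ventricle was omitted, and Postn passed the threshold without Cre-negative replicate 1 (-0.94). FPKM differs from TPM by a constant within a ventricle, so the comparison of neighbouring levels is the same in FPKM by construction and is no check. The number of members that separated the genotypes per substrate went from 0 to 1 without Cre-negative replicate 1, an alternative chosen after seeing the data. The order of the mean levels was the same with any ventricle left out, where 5 ventricles allow no exact p under 0.0625.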
